A study of Mus musculus with 6 samples.

Results

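The S100 genes encode small calcium-binding proteins, and 10 of them were followed here: S100b, S100a1, S100a4, S100a6, S100a8, S100a9, S100a10, S100a11, S100a13 and S100a16. They were found by their mouse gene symbol among the 48526 genes of the authors' deposited table, and all 10 were among the 20101 genes with an adjusted p-value. RNA had been sequenced from oligodendrocyte precursor cells, or OPCs, which divide and later mature into the cells that make myelin. They were sorted from forebrains of mice at postnatal day 6. The ctrl group held 3 samples from mice with CNP1::Cre, a recombinase driven by an oligodendroglial promoter, and a conditional Rosa26stopflox-YFP allele that makes recombined cells fluorescent. The Ep400 cko group held 3 samples from mice with the same Cre and YFP alleles and, in addition, conditional Ep400, a gene for the ATPase of a chromatin remodelling complex. All mice were of a mixed 129SvJ/C57Bl/6J background, and the sort was made on YFP and on Hoechst-33342, a DNA stain, from brains freed of meninges. The comparison asks which transcripts differ when Ep400 is deleted in cells of this lineage.

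S100 proteins carry a pair of EF-hands, the helix-loop-helix folds that bind calcium, and most of them form dimers that expose a binding surface when calcium rises. They have no enzyme activity of their own and act by docking onto partners such as annexins, cytoskeletal proteins, kinases and, outside the cell, receptors such as RAGE and TLR4. S100B is best known from astrocytes and from cells of the oligodendrocyte lineage, whereas S100A8 and S100A9 form calprotectin, an abundant protein of neutrophils.

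Of the 10 genes, 3 were lower in Ep400 cko at an adjusted p under 0.05, namely S100a11, S100a6 and S100a13, and none was higher. Over all tested genes of the authors' deposited table, 4.61% were called lower, 7.64% higher and 12.2% in either direction. These shares are also the background for the counts of called genes in the lists below. The authors' deposited table gave a median log2 fold change of -0.66 for the 10 genes, against 0.00 for all tested genes. Of the 10 log2 fold changes in the authors' deposited table, 7 were negative and 3 positive. Over the 9 genes whose reads per library could be worked out, the median was -0.76 with all 6 libraries and -0.25 without ctrl library c, described next, and it ran from -0.65 to -0.90 with any other library left out. These fold changes are moderated, that is, pulled towards 0 for variable genes, so they are smaller than the ratio of the group means.

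The table lists means and no values per sample, but the reads of each library could be worked out for 9 of the 10 genes, because only 1 set of whole reads gave both the deposited mean and the deposited fold change. Within each group the letters a, b and c name the libraries by falling scale factor, and they could not be matched to the numbered replicates. Their scale factors ran from 0.967 to 1.122, and the deposited means summed to 80407433 normalised reads. Ctrl library c stood apart from the other ctrl libraries. Of 10 markers of mature oligodendrocytes, 4 had reads worked out, and their summed level was 7783 normalised reads in ctrl c, 1678 and 1974 in ctrl a and b, and 978 to 2154 in the Ep400 cko libraries. Most of the sum in ctrl c came from 1 gene, Mog, with 6317.7 normalised reads, and the other 3 genes summed to 1465 in ctrl c, 733 and 589 in ctrl a and b, and 767 to 1616 in the Ep400 cko libraries. For the 9 S100 genes with reads, values without ctrl c are given below where leaving it out ended a call or moved the fold change by over 1.5 times, and for called genes of other lists as values or as counts of the calls that were lost. The part of ctrl c was not tested for S100a16 and other genes without reads. The targeted gene does not check the labels: Ep400, counted over the whole gene, had a log2 fold change of 0.01 ± 0.17 (SE) in the authors' deposited table, and the sources used here do not say which exons were deleted. The OPC markers were present, and all 10 were tested. The authors' deposited table had Ptprz1 as the OPC marker with most reads, at 352288.2 normalised reads on average. Transcripts of other cells were present too, the astrocyte transporter genes Slc1a3 and Slc1a2 with 318172.2 and 182361.1, the microglial Csf1r with 129373.1 and the pericyte gene Rgs5 with 85800.8 normalised reads on average in the authors' deposited table. Slc1a3 and Slc1a2 were higher in Ep400 cko, at 1.22 ± 0.31 (SE, DESeq2 adjusted p 0.00239) and 1.33 ± 0.32 (SE, DESeq2 adjusted p 0.00101) in the authors' deposited table. In such bulk samples, fewer cells of a type and less RNA per cell cannot be told apart.

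Levels can be compared between genes only per length, here as deposited mean normalised reads per kilobase of the longest transcript. S100a16, whose protein is among the less studied of the family, was the most abundant at 17700 per kilobase. S100a1 followed at 9170, S100a13 at 6830, S100a6 at 6550 and S100b at 5420 normalised reads per kilobase. S100a11 at 2970 and S100a10 at 1130 normalised reads per kilobase formed the middle of the range. S100a4, whose exons are partly shared with another gene, stood at 205. The calprotectin genes were lowest, with S100a9 at 30.1 and S100a8 at 12.8 normalised reads per kilobase. Neighbours among S100a1, S100a13, S100a6 and S100b in this order differed by less than the spread between ctrl libraries, whose coefficient of variation was 59.8% for S100a1, 57.9% for S100a13, 65.5% for S100a6 and 76.4% for S100b.

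**Figure D1:**
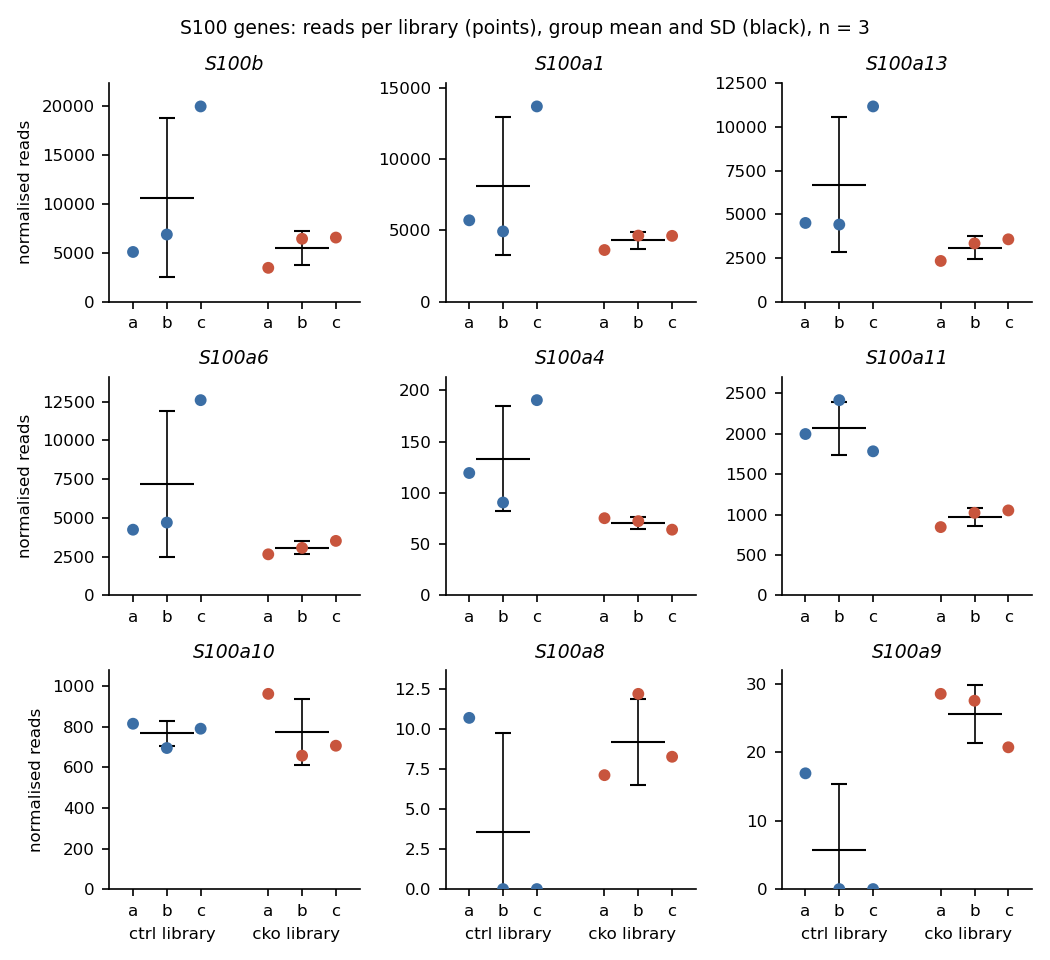
Normalised reads (y axis, linear, from 0) of 9 S100 genes in the 3 ctrl libraries (blue) and the 3 Ep400 cko libraries (red), with the group mean and SD in black (lower SD bars are clipped at 0). Ctrl library c lies far above the other 5 libraries for S100b, S100a1, S100a13 and S100a6 but not for S100a11. The groups do not overlap for S100a11, nor for S100a1, S100a13, S100a6, S100a4 and S100a9.

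S100A11 (calgizzarin) binds annexin A1 through the amino-terminal end of the annexin and takes part in membrane repair and vesicle traffic. S100a11 had 2240, 2399 and 1731 reads in ctrl libraries a, b and c, and 830, 1001 and 1017 reads in Ep400 cko libraries a, b and c. Every ctrl library was above every Ep400 cko library, and ctrl c was the lowest of the ctrl libraries. The group means were 2064.8 ± 322.0 normalised reads in ctrl and 972.3 ± 111.6 in Ep400 cko (SD, n = 3 each), a ratio of 0.471. The log2 fold change of S100a11 in the authors' deposited table was -1.03 ± 0.19 (SE), with a DESeq2 adjusted p of 4.6e-06. That value stayed between -0.90 and -1.11 with any 1 library left out, with p-values from 6.5e-08 to 1.2e-05, all below 0.00612, the largest p-value that passed in the full table. Without ctrl c the log2 fold change of S100a11 was -1.11 ± 0.20 (SE). Among the 9 genes with reads it was the only one whose call held in every such refit.

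The S100a11 gene lies on chromosome 3 at chr3:93520488-93526287 (GRCm38, plus strand). The stretch before its start, from RefSeq (GRCm38.p6), is shown because S100a11 held in every refit and because its neighbour S100a10, on the same strand, was not called; capitals mark GGGCGG, the GC box, and TGANTCA, the AP-1 site, both searched on either strand.
S100a11 chr3:93520246-93520487, plus strand: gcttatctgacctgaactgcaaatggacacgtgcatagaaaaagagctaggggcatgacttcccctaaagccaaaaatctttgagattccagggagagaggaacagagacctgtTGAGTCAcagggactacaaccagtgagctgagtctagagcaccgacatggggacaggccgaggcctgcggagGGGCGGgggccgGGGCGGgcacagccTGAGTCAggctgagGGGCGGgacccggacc
This window held 3 GC boxes and 2 AP-1 matches, all of them before the start. Of the 9 members with a window, S100a16 also held both kinds of match and S100a9 a GC box, and neither gene was called. S100a10 had no window to compare. Among 32851 promoter windows of 300 bases, 35.7% held at least 1 GC box and 7.81% at least 1 AP-1 match. A match describes the letters and not a bound factor.

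S100A10 (p11) differs from the rest in that its calcium sites are inactive; it forms a tetramer with annexin A2 and brings plasminogen and its activator to the cell surface. S100a10 had 915, 691 and 768 reads in ctrl libraries a, b and c, and 946, 645 and 684 in Ep400 cko libraries a, b and c. The groups overlapped, and ctrl c lay between ctrl a and b. Means were 767.4 ± 63.2 normalised reads in ctrl and 775.9 ± 163.6 in Ep400 cko (SD, n = 3 each). In the authors' deposited table the log2 fold change of S100a10 was 0.01 ± 0.20 (SE), DESeq2 adjusted p 0.98, with a 95% interval from -0.38 to 0.41. Without ctrl c it was 0.04 ± 0.22 (SE). The 95% interval of S100a10 does not reach the one of S100a11, which ran from -1.39 to -0.67 in the authors' deposited table; the difference between the genes was not tested. S100a10 lies at chr3:93555080-93564643, on the plus strand.

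Annexins are the main partners of this pair of proteins, and of 14 annexin and AHNAK genes 12 were tested, with 1 lower and 1 higher in Ep400 cko. Among all tested genes the share called in either direction was 12.2%. Anxa1, the annexin that S100A11 binds, was at -1.14 ± 0.25 (SE, DESeq2 adjusted p 0.00032) in the authors' deposited table. Anxa1 had 741, 761 and 1022 reads in ctrl libraries a, b and c against 260, 323 and 423 in the Ep400 cko libraries, so its groups were apart. Anxa3 was the gene that was higher, at 0.98 ± 0.13 (SE, DESeq2 adjusted p 8.1e-11) in the authors' deposited table. Anxa2, which holds S100A10 in its tetramer, was at -0.30 ± 0.19 (SE, DESeq2 adjusted p 0.335) in the authors' deposited table. Ahnak, a giant scaffold that binds the same tetramer, was at -0.29 ± 0.20 (SE, DESeq2 adjusted p 0.379) in the authors' deposited table. Anxa6, the annexin with most reads, was at -0.30 ± 0.16 (SE, DESeq2 adjusted p 0.219) in the authors' deposited table. Over the 12 tested genes the median log2 fold change was -0.30.

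Plasminogen activation, which S100A10 serves at the cell surface, was represented by 8 genes, of which 2 were lower, 0 higher and 6 not called. Plau, the urokinase-type activator, was at -0.50 ± 0.16 (SE, DESeq2 adjusted p 0.0189) in the authors' deposited table. Its call was lost without ctrl b, at -0.40 ± 0.17 (SE), and without Ep400 cko b, at -0.46 ± 0.17 (SE). Serpine2, an inhibitor of serine proteases and the gene with most reads of the list, was at 0.56 ± 0.22 (SE, DESeq2 adjusted p 0.0714) in the authors' deposited table. Over the list the median log2 fold change was 0.09, and its members went both ways.

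**Figure D2:**
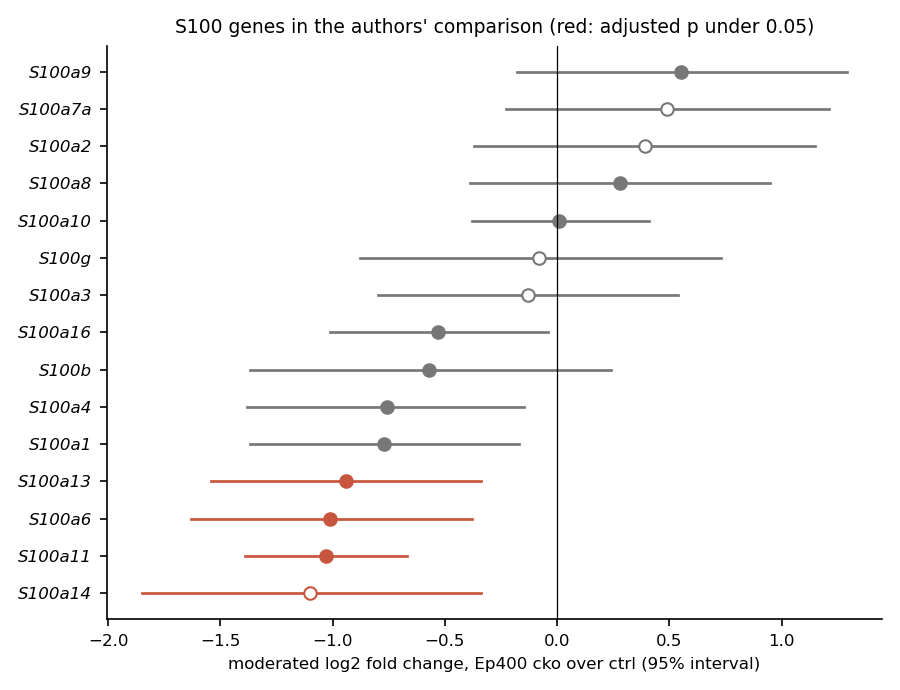
Moderated log2 fold change, Ep400 cko over ctrl, with its 95% interval, for the 15 S100 genes with an adjusted p-value in the authors' deposited table. Filled points are the 10 genes followed here, open points other S100 genes, and red marks an adjusted p under 0.05; S100a11 has the narrowest interval.

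S100A6 (calcyclin) binds annexins and the calcyclin-binding protein CACYBP and is often high in fibroblasts and other dividing cells. S100a6 had 4757, 4668 and 12240 reads in ctrl libraries a, b and c, and 2604, 3004 and 3402 reads in Ep400 cko libraries a, b and c. The groups did not overlap, and ctrl c was 2.82 times the mean of ctrl a and b. The group means were 7181.3 ± 4702.2 normalised reads in ctrl and 3077.0 ± 433.4 in Ep400 cko (SD, n = 3 each), a ratio of 0.428. Its fold change on the log2 scale was -1.01 ± 0.32 (SE) in the authors' deposited table, with a DESeq2 adjusted p of 0.020. Without ctrl c it was -0.43 ± 0.34 (SE) and no longer passed, and the ratio of the means was 0.688. Without Ep400 cko library a it was -0.88 ± 0.34 (SE) and did not pass either. The call of S100a6, unlike that of S100a11, was thus lost in some refits. Shown next, to set them beside those of S100a11, are the 238 bases before its start (RefSeq, GRCm38.p6). Capitals mark a CCAAT box, read here on the other strand.
S100a6 chr3:90612644-90612881, plus strand: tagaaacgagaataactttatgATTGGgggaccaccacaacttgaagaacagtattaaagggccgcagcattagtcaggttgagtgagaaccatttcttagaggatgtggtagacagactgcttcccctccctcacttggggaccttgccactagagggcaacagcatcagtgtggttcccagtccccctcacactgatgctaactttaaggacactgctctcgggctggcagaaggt
This window held 1 CCAAT box and none of the GC box or AP-1 letters, and 37.4% of all promoter windows held a CCAAT box.

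S100A13 helps export FGF1, a growth factor without a signal peptide, and S100A1 is best known from muscle, where it binds the ryanodine receptor and the calcium pump SERCA2. Their genes lie head to head, S100a1 on the minus strand at chr3:90511034-90514392 and S100a13 on the plus strand at chr3:90514435-90524581, so that these GENCODE start sites face a gap of 42 bases. The RefSeq starts, from which the promoter windows were taken, have 104 bases between them. The gap is shown because it lies between both annotated starts. Both genes had their highest value in ctrl c and their lowest in Ep400 cko a, but so did S100a6, S100a14 and S100a3 elsewhere in the cluster and S100b on chromosome 10. The sequence is from RefSeq (GRCm38.p6).
S100a1-S100a13 gap chr3:90514393-90514434, plus strand: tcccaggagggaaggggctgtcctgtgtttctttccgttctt
Neither of their promoter windows, which share 204 bases, held the TATA box (TATAAA), the CCAAT box, the GC box, the AP-1 site or the SOX letters (ACAAAG) on either strand; 13.6% of all windows held a TATA box and 18.7% the SOX letters.

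S100a13 had 5053, 4382 and 10850 reads in ctrl libraries a, b and c, and 2288, 3268 and 3451 reads in Ep400 cko libraries a, b and c. The groups did not overlap, ctrl c was 2.51 times the mean of ctrl a and b, and Ep400 cko a was the lowest of all. The group means were 6696.1 ± 3877.4 and 3076.4 ± 658.2 normalised reads (SD, n = 3 each), a ratio of 0.459. The authors' deposited table gave S100a13 a log2 fold change of -0.94 ± 0.31 (SE) and a DESeq2 adjusted p of 0.025. Without ctrl c the log2 fold change was -0.43 ± 0.33 (SE), and without Ep400 cko a it was -0.77 ± 0.33 (SE), so the call was lost in both.

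S100a1 had 6414, 4902 and 13323 reads in ctrl libraries a, b and c, and 3565, 4550 and 4472 reads in Ep400 cko libraries a, b and c. Its groups did not overlap, but ctrl b was close to Ep400 cko b and c, and ctrl c was 2.58 times the mean of ctrl a and b. The group means were 8123.8 ± 4861.8 and 4297.3 ± 579.7 normalised reads (SD, n = 3 each), a ratio of 0.529. The authors' deposited table gave S100a1 a log2 fold change of -0.77 ± 0.31 (SE) and a DESeq2 adjusted p of 0.077, which missed the threshold. S100a1 passed without ctrl a, at -0.91 ± 0.33 (SE), and without ctrl b, at -0.95 ± 0.33 (SE), while without ctrl c it was at -0.25 ± 0.33 (SE).

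All 3 genes tested for FGF1 release with S100A13 were in the table, and 2 were higher. Fgf1 had 1994, 2616 and 1155 reads in ctrl and 2842, 4651 and 4862 in Ep400 cko, with no overlap. Fgf1 was at 1.02 ± 0.28 (SE, DESeq2 adjusted p 0.00608) in the authors' deposited table. Syt1, a calcium sensor of vesicle release that joins the same export complex, was at 0.78 ± 0.26 (SE, DESeq2 adjusted p 0.0256) in the authors' deposited table. Without ctrl c neither passed, with Fgf1 at 0.79 ± 0.31 (SE) and Syt1 at 0.65 ± 0.28 (SE), and Syt1 also lost its call without ctrl a, at 0.75 ± 0.28 (SE), and without Ep400 cko a, at 0.61 ± 0.28 (SE). Syt1 is also on the list of neuron markers, of which 3 of 10 were higher and 0 lower, and the part of neuronal transcripts in its rise was not tested. With all 6 libraries Fgf1 was thus higher and S100a13 lower in Ep400 cko, and neither was called without ctrl c. In ctrl c Fgf1 was the lowest and S100a13 the highest of the 6 libraries. A relation between these genes was not tested.

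Of 22 intracellular targets of S100 proteins, 3 were higher and 0 lower, with a median log2 fold change of -0.04. Over all tested genes, 12.2% were called in either direction. Ryr2, the ryanodine receptor that S100A1 binds, was at 0.81 ± 0.25 (SE, DESeq2 adjusted p 0.0168) in the authors' deposited table, and Stk38l, a kinase close to the S100B target STK38, at 0.83 ± 0.22 (SE, DESeq2 adjusted p 0.00393) in the same authors' deposited table. Ryr2 lost its call without ctrl a, ctrl b, Ep400 cko b or Ep400 cko c, with values from 0.69 to 0.74. Aldoc, a glycolytic enzyme, was at 0.88 ± 0.26 (SE, DESeq2 adjusted p 0.00943) in the authors' deposited table. It is also an astrocyte marker, and of the 12 astrocyte markers 9 were higher and 0 lower, with a median of 1.05. Atp2a2, which encodes SERCA2 and had most reads of the list, though not per kilobase, was at 0.40 ± 0.19 (SE, DESeq2 adjusted p 0.16) in the authors' deposited table.

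S100B binds cytoskeletal proteins, p53 and kinases inside glia and is also secreted. S100b had 5688, 6805 and 19346 reads in ctrl libraries a, b and c, and 3390, 6290 and 6326 in Ep400 cko libraries a, b and c. The groups overlapped: ctrl a lay below Ep400 cko b and c, and ctrl c was 3.34 times the mean of ctrl a and b. The means were 10614.3 ± 8109.9 and 5468.4 ± 1749.1 normalised reads (SD, n = 3 each). Its log2 fold change in the authors' deposited table was -0.57 ± 0.41 (SE), DESeq2 adjusted p 0.40, with a 95% interval from -1.37 to 0.24. Without ctrl c the log2 fold change was -0.07 ± 0.42 (SE), and the ratio of the means went from 0.515 to 0.917. S100b is the member that lies outside chromosome 3, at chr10:76253853-76261159 on the plus strand. Its upstream stretch (RefSeq, GRCm38.p6) is shown as the promoter of the glial member, with capitals for the CCAAT box on either strand.
S100b chr10:76253586-76253835, plus strand: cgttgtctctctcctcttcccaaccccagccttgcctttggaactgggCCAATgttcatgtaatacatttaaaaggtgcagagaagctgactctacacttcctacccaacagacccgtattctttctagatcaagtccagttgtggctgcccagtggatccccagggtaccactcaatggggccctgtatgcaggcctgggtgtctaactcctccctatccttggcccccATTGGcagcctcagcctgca
It held 2 CCAAT boxes and no AP-1 or GC box letters.

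S100A4 binds non-muscle myosin and is widely used as a label of fibroblasts and some macrophages. S100a4 had few counted reads, at 134, 90 and 185 in ctrl libraries a, b and c and 74, 71 and 62 in Ep400 cko libraries a, b and c. The groups did not overlap, and ctrl c was 1.81 times the mean of ctrl a and b. The group means were 133.5 ± 51.4 and 70.6 ± 5.83 normalised reads (SD, n = 3 each), a ratio of 0.529. The authors' deposited table gave S100a4 a log2 fold change of -0.76 ± 0.31 (SE), DESeq2 adjusted p 0.089, which did not pass. Without ctrl c it was -0.46 ± 0.34 (SE). On the same strand, 51.7% of its exon bases are shared with Gm42674, which is listed at 0, so reads from that stretch are ambiguous between the genes. Whether this lowered the count of S100a4 was not tested.

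For S100a16 no reads per library could be worked out, since its deposited mean of 19908.1 lies above the 8500 up to which the search was run. Group means estimated from the deposited fold change were 23876.8 in ctrl and 15939.5 in Ep400 cko, a ratio of 0.668. Its log2 fold change was -0.53 ± 0.25 (SE) in the authors' deposited table, DESeq2 adjusted p 0.15. The part of ctrl c in this value was not tested.

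**Figure D3:**
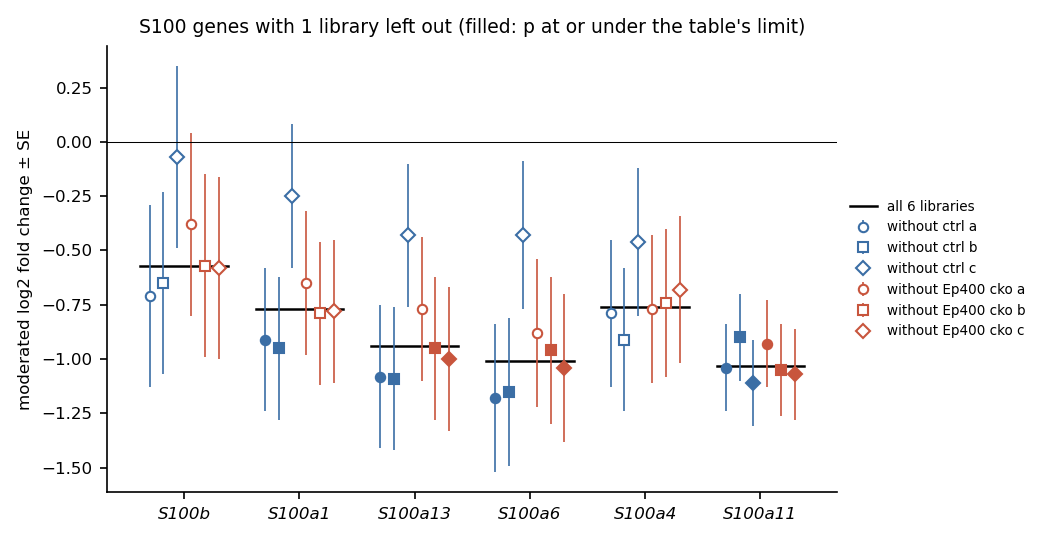
Moderated log2 fold change ± SE of 6 S100 genes with 1 library left out at a time; the black line is the value with all 6 libraries, and filled symbols have a p-value at or under 0.00612. S100a11 stays near -1.03 throughout, whereas the values without ctrl c (open blue diamonds) move towards 0 for the other 5 genes.

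S100A8 and S100A9 form calprotectin, which binds zinc and manganese and signals through TLR4 and RAGE. S100a8 had 12, 0 and 0 reads in ctrl libraries a, b and c, and 7, 12 and 8 in Ep400 cko libraries a, b and c. For S100a9 there were 19, 0 and 0 reads in ctrl a, b and c, and 28, 27 and 20 in Ep400 cko a, b and c. Both genes were thus read in 4 libraries and absent from ctrl b and c, where a count of 0 still allows up to 3 reads. The groups overlapped for S100a8, through ctrl a, and did not for S100a9. The log2 fold change of S100a8 was 0.28 ± 0.34 (SE, DESeq2 adjusted p 0.66) in the authors' deposited table. That of S100a9 was 0.55 ± 0.37 (SE, DESeq2 adjusted p 0.36) in the authors' deposited table, with a 95% interval from -0.18 to 1.29. Without ctrl a, the ctrl library with reads, S100a9 was at 0.71 ± 0.35 (SE) and S100a8 at 0.49 ± 0.32 (SE), and without ctrl c they were at 0.34 ± 0.35 and 0.13 ± 0.32 (SE), and neither passed in either case.

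Neutrophil and monocyte markers were looked at beside this pair. Of 15 such genes 9 were tested, 1 was lower (Plac8, at -1.31 ± 0.31 (SE, DESeq2 adjusted p 0.00107) in the authors' deposited table) and 0 higher. The summed level of the 14 with reads worked out ran from 5558 to 7671 normalised reads in ctrl and from 4750 to 6201 in Ep400 cko, and most of it came from Csf3r, which the authors' deposited table lists at 4687.8 normalised reads on average. None of the 15 was at 0 in all libraries. Ngp, which encodes a neutrophil granule protein, had 27, 0 and 0 reads in ctrl libraries a, b and c and 18, 21 and 9 in the Ep400 cko libraries, and Camp, the gene of a granule peptide, had 2, 0 and 0 against 8, 8 and 2. These genes were chosen after their values were seen. Ly6g, the usual surface marker of neutrophils, had 2, 0 and 0 reads in ctrl and 1, 0 and 0 in Ep400 cko. Ngp and Camp were read in the same 4 libraries as S100a8 and S100a9, but other granule genes of the list were not. Ltf had 17, 0 and 5 reads in ctrl libraries a, b and c and 5, 20 and 4 in the Ep400 cko libraries, and Lcn2 had 18, 10 and 29 against 36, 50 and 4. Elane had 0, 0 and 7 reads in ctrl and 1, 0 and 0 in Ep400 cko, and Mpo 0, 1 and 0 against 2, 4 and 3. The part of neutrophil transcripts in the values of the calprotectin genes was not tested.

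Receptors for secreted S100 proteins went both ways: of 7 tested, 2 were higher, 1 lower and 4 not called, with a median log2 fold change of 0.14. Ager, which encodes RAGE, had 442, 314 and 380 reads in ctrl libraries a, b and c and 527, 580 and 741 in the Ep400 cko libraries, with no overlap. The fold change of Ager on the log2 scale was 0.73 ± 0.21 (SE, DESeq2 adjusted p 0.00973) in the authors' deposited table. Ager lost its call without ctrl b, at 0.63 ± 0.23 (SE), and without Ep400 cko c, at 0.57 ± 0.23 (SE). Alcam, an adhesion molecule that binds S100B, was at 0.97 ± 0.24 (SE, DESeq2 adjusted p 0.00208) in the authors' deposited table. Mcam, an adhesion molecule of vessel walls that binds S100A8 and S100A9, was at -0.75 ± 0.21 (SE, DESeq2 adjusted p 0.00845) in the authors' deposited table. Tlr4 was at -0.37 ± 0.25 (SE, DESeq2 adjusted p 0.344) and Bsg, the receptor gene with most reads, at -0.27 ± 0.17 (SE, DESeq2 adjusted p 0.328) in the authors' deposited table.

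Beyond the 10 genes the table held 5 further tested S100 genes, of which 1 was lower and 0 higher. S100a14, whose protein is known from epithelia, had 78, 101 and 251 reads in ctrl libraries a, b and c and 27, 58 and 54 in Ep400 cko libraries a, b and c, with no overlap. Its log2 fold change was -1.10 ± 0.39 (SE, DESeq2 adjusted p 0.040) in the authors' deposited table, and -0.55 ± 0.40 (SE) without ctrl c, where it did not pass. The call of S100a14 was also lost without Ep400 cko a, at -0.83 ± 0.40 (SE), and without Ep400 cko c, at -1.08 ± 0.40 (SE). S100a3 had 425, 347 and 774 reads in ctrl and 212, 526 and 587 in Ep400 cko, and its log2 fold change in the authors' deposited table was -0.13 ± 0.34 (SE, DESeq2 adjusted p 0.856). The sign of S100a3 turned without ctrl c, at 0.23 ± 0.36 (SE), and without Ep400 cko a, at 0.13 ± 0.36 (SE). S100a2, S100a7a and S100g had means of 7.32 to 37.6 normalised reads, and their log2 fold changes in the authors' deposited table ran from -0.08 to 0.49, with no call. S100a5 was too low to be tested and S100z was listed at 0. S100a14 and S100a3 shared the high value in ctrl c, at 3.02 and 2.19 times the mean of ctrl a and b.

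**Figure D4:**
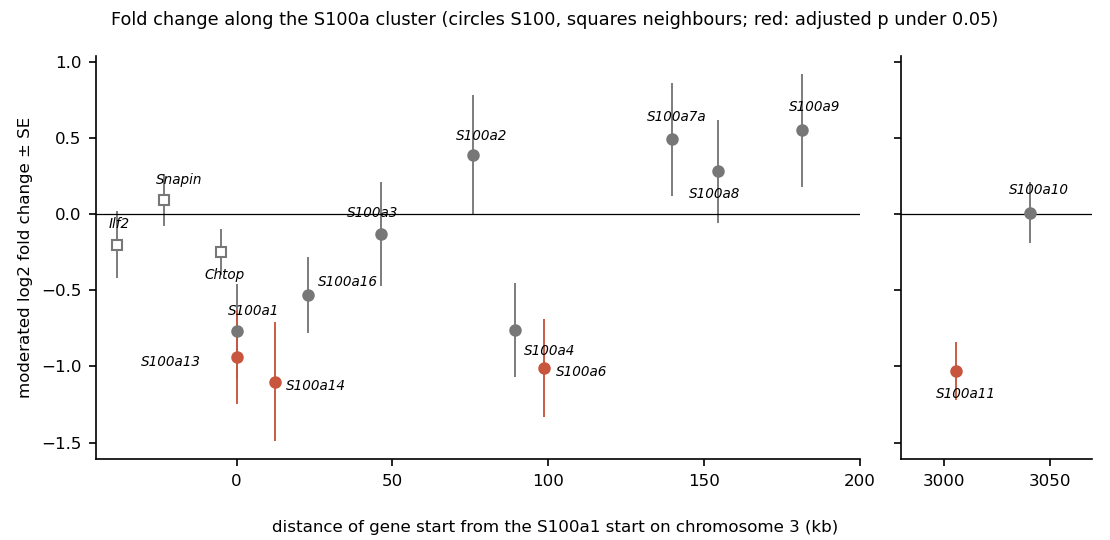
Moderated log2 fold change ± SE against the distance of each gene's start from that of S100a1 on chromosome 3 (kb, minus values towards the lower coordinates; the axis is cut between the panels). Circles are S100 genes, squares neighbouring genes and red marks an adjusted p under 0.05; 6 of the 7 S100 genes with values below -0.5 lie at 0.0 to 98.5 kb, with S100a3 and S100a2 among them, S100a7a, S100a8 and S100a9 lie beyond them above 0, and the 3 neighbours lie between -0.25 and 0.09.

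Apart from S100b and S100g, the tested S100 genes lie in a cluster on chromosome 3, in 2 groups about 3 Mb apart. Within the first group S100a13, S100a14 and S100a6 were lower, with starts 0.0, 12.5 and 98.5 kb from that of S100a1. Between them S100a16 (22.9 kb), S100a3 (46.2 kb), S100a2 (75.9 kb) and S100a4 (89.4 kb) were not called, and neither was S100a1. The genes at the far end, S100a7a (139.6 kb), S100a8 (154.6 kb) and S100a9 (181.3 kb), had fold changes above 0 and no call. Chtop, which flanks S100a1, was at -0.25 ± 0.15 (SE, DESeq2 adjusted p 0.274) in the authors' deposited table. Snapin and Ilf2 beyond it were at 0.09 ± 0.17 and -0.20 ± 0.22 (SE) in the authors' deposited table, with no call. Between the groups 5 tested genes lay, of which 1 was called, the pseudogene Gm5278, with a mean of only 16.6 normalised reads. Gm5278 was at -1.14 ± 0.40 (SE, DESeq2 adjusted p 0.042) in the authors' deposited table. Lor, Gm9774, Gm4202 and Tchh, the other 4, ran from -0.58 to 0.27 in the authors' deposited table. Tchh, a hair protein with an S100-like start, was the one tested gene of 7 S100-fused and adjacent epidermal genes, the 6 others being listed at 0. Them4 beyond S100a10, Prmt2 and Dip2a beside S100b and Ctps2 around S100g were not called.

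Markers of several cell types were also high in ctrl c. Relative to the mean of ctrl a and b, the summed level in ctrl c was 4.26 for mature oligodendrocyte markers (4 of 10 with reads, and 2.22 for the 3 of them other than Mog), 2.08 for fibroblast and meningeal markers (5 of 10), 1.82 for ependymal and choroid plexus markers (9 of 10) and 0.444 for neuron markers (8 of 10). For the 9 S100 genes with reads it was 2.58, and 5 of the 9 were highest in ctrl c among the ctrl libraries. Aspa, a mature oligodendrocyte marker that was higher in Ep400 cko, was not high in ctrl c, with 393, 186 and 216 reads in ctrl libraries a, b and c and 359, 1038 and 983 in Ep400 cko libraries a, b and c. Mog, a protein of the outer myelin surface, had 1061, 1376 and 6135 reads in ctrl libraries a, b and c and 207, 591 and 444 in Ep400 cko libraries a, b and c. Its log2 fold change went from -1.22 ± 0.42 (SE, DESeq2 adjusted p 0.0338) in the authors' deposited table to -0.60 ± 0.41 (SE) without ctrl c, where it did not pass, and leaving out any 1 Ep400 cko library also ended the call, with values from -0.89 to -1.07. Between the groups, 7 of 10 fibroblast and meningeal markers, 6 of 10 mural and smooth muscle markers, 5 of 10 microglia and macrophage markers, 3 of 10 ependymal and choroid plexus markers and 2 of 10 endothelial markers were lower in Ep400 cko, and 0 of each were higher. The ependymal and choroid plexus list was split, with 5 negative and 5 positive fold changes in the authors' deposited table. Without ctrl c, all 3 ependymal and choroid plexus calls were lost (Foxj1, Rsph1 and Ccdc153, at -0.74, -0.71 and -0.38), as were 2 of the 3 fibroblast and meningeal calls with reads (Dcn and Lum, at -0.57 and -0.66). The microglia and macrophage call with reads (Lyve1, at -0.64), the endothelial one (Esam, at -0.54) and the OPC one (C1ql1, at -0.68) were lost as well. Of these genes, Foxj1 and Rsph1 kept the call when any other library was left out, and each of the others also lost it without at least 1 other library. All 5 mural and smooth muscle calls with reads held without ctrl c. Of the OPC markers 2 were higher (Ptprz1 and Cspg5) and 2 lower (C1ql1 and Matn4). Of the mature oligodendrocyte markers 1 was higher and 1, Mog, lower.

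For S100a11 the comparison with these lists is given because S100a11 did not follow ctrl c. The summed level of the 6 mural and smooth muscle markers with reads ran from 21412 to 42317 normalised reads in ctrl and from 12700 to 17935 in Ep400 cko, lowest in Ep400 cko a and highest in ctrl b, as S100a11 was, but within ctrl it was lowest in a, where S100a11 was lowest in c. Tagln, a smooth muscle gene, had 4364, 8082 and 6210 reads in ctrl and 1333, 1998 and 2193 in Ep400 cko. Tagln was at -1.50 ± 0.27 (SE, DESeq2 adjusted p 4.6e-06) in the authors' deposited table. Summed over the 5 with reads, the fibroblast markers came to 10907 to 26366 in ctrl and 4544 to 10492 in Ep400 cko. That sum was highest in ctrl c, the ctrl library in which S100a11 was lowest. The 8 endothelial markers with reads summed to 24554 to 37694 in ctrl and 15179 to 30697 in Ep400 cko, so their groups overlapped. Only 3 of 10 microglia and macrophage markers had reads worked out, namely Aif1, Cd163 and Lyve1. These 3 summed to 4966 to 6861 in ctrl and 3711 to 4309 in Ep400 cko. Within ctrl the sum of these 3 genes was lowest in c and highest in b, as S100a11 was. Within Ep400 cko it was lowest in b, where S100a11 was lowest in a. None of these lists had a member at 0. The part of each cell type in the S100 values was not tested.

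**Figure D5:**
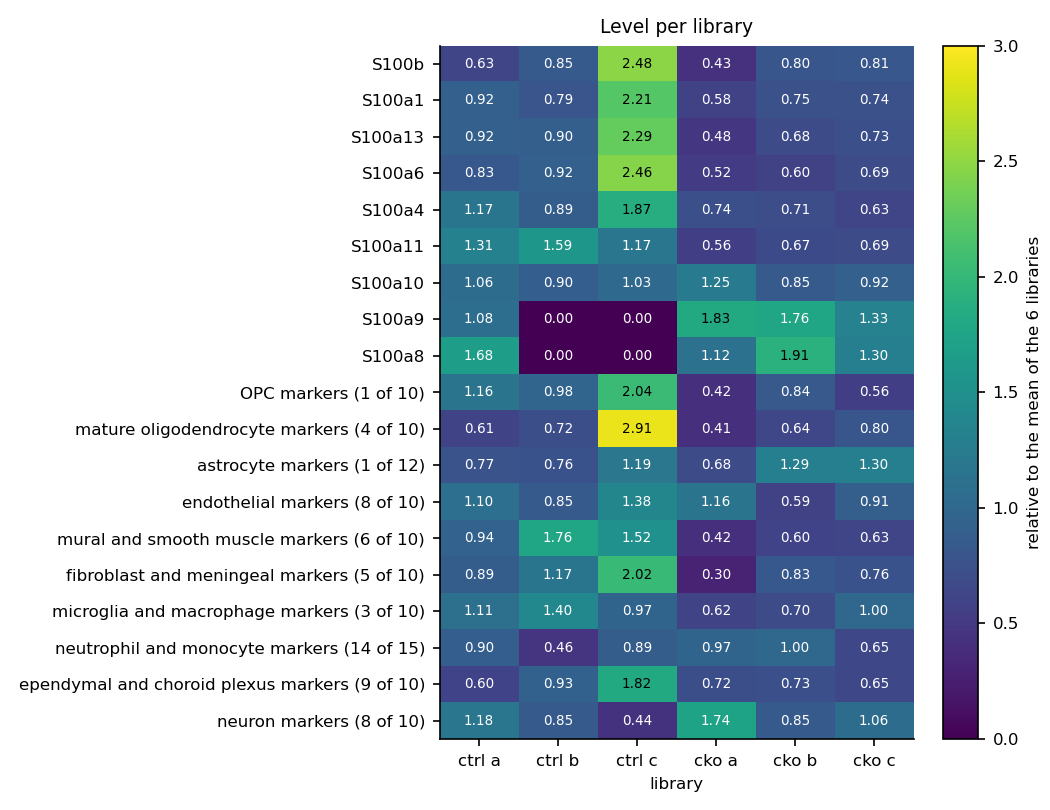
Level in each library relative to the mean of the 6 libraries, for 9 S100 genes and, below them, for the median gene of each marker list, with the number of list genes that had reads in brackets. In ctrl c, S100b, S100a1, S100a13 and S100a6 stand at 2.21 to 2.48, whereas S100a11 stands at 1.17. Several marker lists are high in ctrl c, the mature oligodendrocyte markers at 2.91 and the OPC markers, with 1 gene, at 2.04. There the fibroblast and meningeal markers stand at 2.02, the ependymal and choroid plexus markers at 1.82 and the neuron markers at 0.44.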

How the data were processed

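RNA of 3 ctrl and 3 Ep400 cko samples was compared by the authors in one table with Ensembl 85 gene identifiers, per the file headers. STAR 2.5.1, HTSeq, DESeq2 and the build mm10 are the tools and build of the submitters' processing notes, which give no order. The sources used here do not say whether counting used strand. The authors deposited a mean signal per gene (a normalised read count), a log2 fold change, a standard error on the log2 scale, a Wald score, a p-value and a Benjamini-Hochberg adjusted p-value, per the file headers. The file holds 0 columns per sample, so the authors' DESeq2 comparison is the main test, at an adjusted p under 0.05, and a count model could not be run. The direction, cko over ctrl, comes from the file's name. The labels call the samples biological replicates.

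The fold changes were reproduced for genes with 1 read in all (largest difference 5.0e-16) by a negative binomial fit with a normal prior of variance 0.348, which gave the scale factor of each library. A library's group was read from the sign of the fold changes that the authors deposited for genes read in that library alone. Whole reads were then sought that give the deposited mean and fold change (largest gap 4.1e-14) for 133 genes with means up to 8500. For 130 exactly 1 set was found, for 3 none and for 0 several, and the search was tested on simulated data. Each library was left out in turn in the same fit, with the dispersion kept from all 6 libraries. The standard errors of these refits therefore still carry the spread that the left-out library added. Group means of S100a16 were estimated from the fit, which came within 0.136% for the solved genes. Reads cover counting error only.

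Coordinates, lengths and exons are from GENCODE M21 (GRCm38, matched for 48058 genes), and promoter windows from 250 bases before to 50 after each start from RefSeq (GRCm38.p6), with 9 of the 10 genes matched and S100a10 not. Python 3.11.15, numpy 2.4.6, scipy 1.17.1, numba 0.67.0 and pandas 2.3.3 were used. The members and lists were chosen with earlier results of these data known. Genes named are the 10 members, other S100 genes with a p-value, tested neighbours on the chromosome, of each further list up to 4 called genes with the smallest adjusted p and the one with the highest mean, and Anxa2, Ahnak, Ager, Tlr4 and Ep400. Marker lists are given mainly as counts. Some genes that this rule names are not reported by name here.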

Additional observations from a re-analysis of the deposited data

How the results depend on the processing

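The count of 3 called S100 genes held, with the same 3 genes, with no filter on low genes, over genes with a mean of at least 50, with fold changes centred on the median gene and over protein-coding genes. It fell to 1, S100a11, when a trend with transcript length and GC content was removed, where S100a6 was at -0.87 (adjusted p 0.0567) and S100a13 at -0.78 (adjusted p 0.0816). With 1 library left out, an alternative chosen after seeing the data, it ran from 1 to 4: it was 1, S100a11, without ctrl c or without Ep400 cko a, 4 without ctrl a or without ctrl b, where S100a1 passed too, and 3 without Ep400 cko b or c. No sign of a called gene changed under these alternatives. The cause of these differences was not tested. Leaving out numbered replicates was not run, since the file has no values per sample. No paired analysis was possible because the libraries worked out from the table carry no replicate number. At 0 reads in a library, up to 3 reads cannot be told from none, which limits S100a8 and S100a9.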

Other observations

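Other EF-hand calcium-binding genes were looked at beside the S100 genes. Of 30 tested, 1 was higher in Ep400 cko, 2 were lower and 27 were not called, with a median log2 fold change of -0.10. The share called in either direction over all tested genes was 12.2%. Rcn2, which encodes a calcium-binding protein of the endoplasmic reticulum, was at 0.97 ± 0.26 (SE, DESeq2 adjusted p 0.00426) in the authors' deposited table. Capn1, the catalytic subunit of the calcium-dependent protease calpain, had 1479, 1899 and 1686 reads in ctrl libraries a, b and c and 1116, 1066 and 981 in the Ep400 cko libraries, and was at -0.58 ± 0.19 (SE, DESeq2 adjusted p 0.0227) in the authors' deposited table. Necab2, a neuronal calcium-binding protein, had 1695, 1322 and 2888 reads against 1094, 1006 and 924, with its highest value in ctrl c, and was at -0.80 ± 0.27 (SE, DESeq2 adjusted p 0.0344) in the authors' deposited table. Without ctrl c Necab2 was at -0.39 ± 0.30 (SE) and did not pass, and its call was also lost without Ep400 cko b or c, at -0.77 and -0.73. The call of Capn1 was lost without ctrl b, at -0.47 ± 0.21 (SE), and without ctrl c or Ep400 cko c, at -0.54 in both. In 19 of the 30 genes reads were worked out, and their summed level in ctrl c was 0.942 of the mean of ctrl a and b, although single genes such as Necab2 were high there.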
